A study of Mus musculus with 84 samples.

Results

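The receptors and ligands of axon guidance were followed across single airway sensory neurons of the mouse vagal ganglia. The members are the 71 protein-coding genes, of 21841 in the deposited table, that encode an Eph receptor, an ephrin, a semaphorin of classes 3 to 7, a plexin, a neuropilin, a netrin or netrin-G, Dcc, Neo1, an Unc5 or Robo receptor, or a Slit. They were chosen by symbol, with earlier results of these data known. The labels define 1 group of 84 neurons from C57BL/6 mice. Each neuron had taken up the lipophilic dye DiI (2%) by retrograde transport, was picked on its own from the vagal ganglia, and had its mRNA amplified before sequencing. The labels give no animal, age or sex. Neurons of one animal cannot be told from those of another, so neurons were not treated as replicates and no p-value is given.

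In development these proteins steer growing axons. Ephrins act on Eph receptor kinases at points of cell contact. Class 3 semaphorins are secreted, and most act through complexes of a neuropilin, which binds the ligand, and a class A plexin, which signals, while most other semaphorins bind plexins directly. Netrins attract through Dcc and repel through Unc5 receptors, and Slits repel through Robo receptors. In adult sensory neurons members of these families take part in maintaining and remodelling axon terminals.

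Reads per gene were given as raw counts. Values are a gene's counts per 1000000 counts of its neuron (CPM), and a gene was called detected in a neuron at 10 CPM or more. The 72 neurons with 5000000 counts or more were used. They had 6732279 to 20668832 counts, and the deepest neuron below the limit had 3892206. Neurons were classed by Prdm12, a transcription factor gene of nociceptors and of the jugular ganglion. The Prdm12 neurons were 7, at 22.04 to 87.0 CPM of Prdm12, and the other neurons were 65, of which the highest had 9.13 CPM. Gene number differed between the classes. The Prdm12 neurons had a median of 8091 genes at 10 CPM (range 4722 to 8317) and the other neurons 4870 (841 to 8870). Prdm12 neurons were therefore also set against the 33 other neurons with 4722 genes or more, called here the other neurons of like gene number, whose median was 7837 genes. This limit was set by 1 Prdm12 neuron, AM304, since the next had 7715 genes. The remaining 32 other neurons had 841 to 4500 genes. Total counts ran from 10509125 to 18238837 in Prdm12 neurons and from 7667941 to 20668832 in the other neurons of like gene number.

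The labelled cell type could be seen in the data, since Snap25, a gene of synaptic vesicle fusion, was detected in 72 of 72 neurons. Of 10 genes shared by neurons at large, 10 were detected in 50% or more of each class. Among ganglion markers, Prrxl1, a jugular marker, reached 10 CPM in 7 of 7 Prdm12 cells and 15 of 33 other neurons of like gene number, and P2rx2, a nodose marker, in 0 of 7 and 26 of 33. Hoxb5, also a nodose marker, was found in 1 of 7 and 32 of 33. Of the other listed nodose markers, Ntrk2 was found in 3 of 7 and 33 of 33. Phox2a was found in 0 of 7 and only 2 of 33, so it marked few neurons of either class. Runx1 and Tac1, listed as jugular markers, did not follow Prdm12, with Runx1 in 5 of 7 and 32 of 33 and Tac1 in 3 of 7 and 22 of 33. Transcripts of other cells were present. The 7 satellite glia markers summed to a median of 294.7 CPM in the Prdm12 class (92.9 to 2418) and 657.7 CPM in the other neurons of like gene number (38.99 to 9793), with 5 and 7 of them at 10 CPM in some neuron. The 7 Schwann cell markers summed to medians of 713 CPM (581.8 to 861.2) and 769.7 CPM (84.5 to 1313), and the 7 fibroblast markers to 52.7 CPM (0.706 to 109.4) and 30.98 CPM (0.222 to 249.8). The 7 endothelial markers summed to at most 2.82 CPM in the Prdm12 class, where 4 of them were at 0, and 120.1 CPM in the others. The 7 leukocyte markers summed to at most 18.6 CPM, with 5 of them at 0, and 64.6 CPM. The 32 other neurons with fewer genes, which enter the comparison with all 65, held more satellite glia transcripts at the median. Their satellite glia markers summed to a median of 1780 CPM and up to 56618 CPM, their Schwann cell markers to up to 21529 CPM, and 9 of the 10 neuronal genes were detected in 50% or more of them. In 6 of the 32 the satellite glia sum exceeded the sum of the neuronal genes, most of all in AM287 (3133 CPM neuronal, 56618 CPM glial) and AM244 (494.4 CPM neuronal, 35386 CPM glial). The part of these transcripts in the differences below was not tested beyond leaving out those 6, a choice made after seeing the data. That choice touches only the comparison with all 65, since none of the 6 is among the other neurons of like gene number.

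Of the 71 members, 59 reached 10 CPM in at least 1 neuron (83.1%), against 61.3% of all protein-coding genes. Few were widespread. Only 8 of the 59 were detected in 50% or more of the neurons (13.6%), against 38.9% of the 13379 protein-coding genes that reached 10 CPM in a neuron, and 31 in 10% or more (52.5%), against 72.9%. The 8 were Robo2 and Sema3c, each in 47 of 72 neurons (65.3%, exact 95% interval 53.1 to 76.1%), Sema5a in 43, Sema4f and Sema6d in 42, Efna5 in 40 (55.6%, 43.4 to 67.3%), Plxna4 in 39 and Unc5c in 38. Per kilobase of exon, the scale on which genes can be set side by side, the highest median levels over the 72 neurons were those of Sema4f (10.7 CPM per kb), Sema3c (7.004), Efna5 (5.13), Robo2 (1.92) and Sema5a (1.84). Within Prdm12 neurons the order of median levels was Sema4f (25.5 CPM per kb), Sema5a (22.96), Efna1 (15.6), Nrp2 (15.4) and Nrp1 (9.0005). Within the other neurons of like gene number it was Sema4f (31.9 CPM per kb), Sema3c (23.8), Efna5 (12.9), Efna1 (11.5) and Plxnc1 (4.55). The ranges over neurons of neighbouring genes in these orders overlapped.

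Each neuron carried a small selection of the members. Prdm12 neurons had a median of 18 members at 10 CPM (9 to 22), the other neurons of like gene number 19 (5 to 27) and the other neurons with fewer genes 5 (0 to 13). As a share of the genes detected, members made up a median of 0.220% in Prdm12 neurons, 0.255% in the other neurons of like gene number and 0.151% in those with fewer genes. The number of members per neuron was thus lower in neurons with fewer genes, and so was their median share of the genes detected. The absence of a member from a neuron with few genes cannot be told apart from a transcript that was lost.

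**Figure D1:**
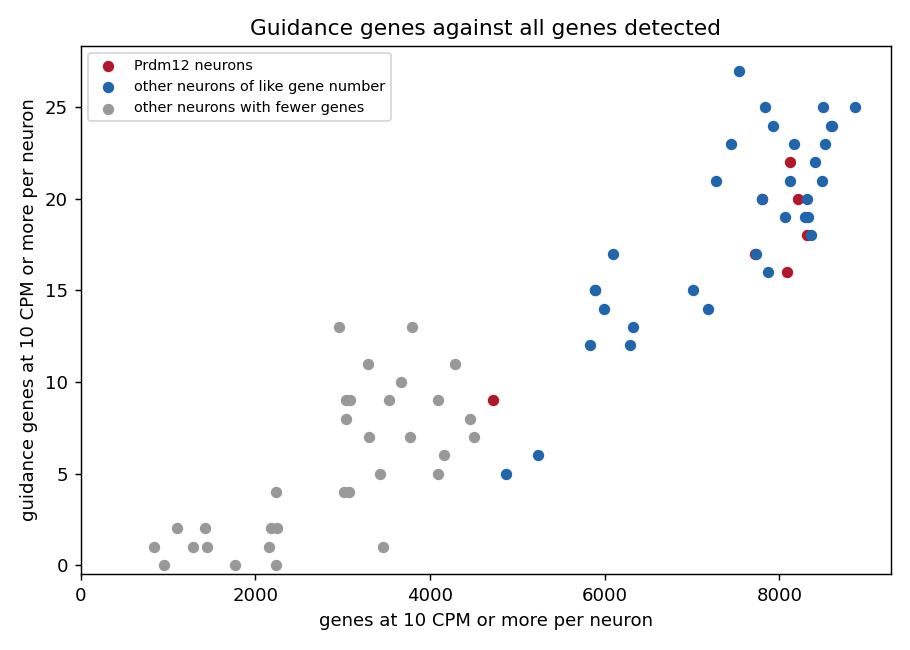
Members at 10 CPM or more (vertical axis) against genes at 10 CPM or more (horizontal axis) in each of the 72 neurons, one point per neuron, coloured by class. Prdm12 neurons (9 to 22 members) lie within the cloud of the other neurons of like gene number (5 to 27), and neurons with fewer genes carry 0 to 13.

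At like gene number the widest difference among the members was in Efna5, for which all but 1 of the Prdm12 neurons were below 10 CPM and which each other neuron of like gene number carried. Sema3b and Plxnc1 were also less frequent in Prdm12 neurons, and Nrp1 and Sema3f more frequent. Differences are given in percentage points of the share of neurons at 10 CPM, and a difference of 40 points or more was called. Against all 65 other neurons, 8 of 59 members were more frequent by this rule (13.6%), beside 15.6% of all genes, and 1 was less frequent (1.69%), beside 0.396%. The 8 were Sema3f (69.2 points), Nrp1 (61.1), Plxna4 (50.8), Efna1 (50.3), Nrp2 (48.8), Sema4d (45.7), Sema5a (44.6) and Plxna2 (41.1), and the 1 was Efna5 (-45.7). The share of members called higher was thus near the background. Without the 6 neurons rich in glial transcripts the 8 became 7, with Plxna2 at 36.6 points, and Efna5 stood at -50.1 points. The share of all genes called without those 6 was not computed. Against the 33 other neurons of like gene number, 2 of 59 were more frequent (3.39%), beside 2.30% of all genes, and 3 were less frequent (5.08%), beside 1.64%. These were Sema3f (48.5 points) and Nrp1 (43.3), and Efna5 (-85.7), Sema3b (-42.4) and Plxnc1 (-41.1). Just outside the limit lay Neo1 (-35.9 points), Plxna3 (-35.1) and Nrp2 (34.2). The median difference over the 59 members was -3.03 points, the step of 1 neuron in 33, beside 0 over all genes. Over all 71 members it was 0, beside 0 over all protein-coding genes. It was also 0 beside 0 for the 59 with both classes limited to 7000 genes or more, a limit chosen after seeing the data.

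**Figure D2:**
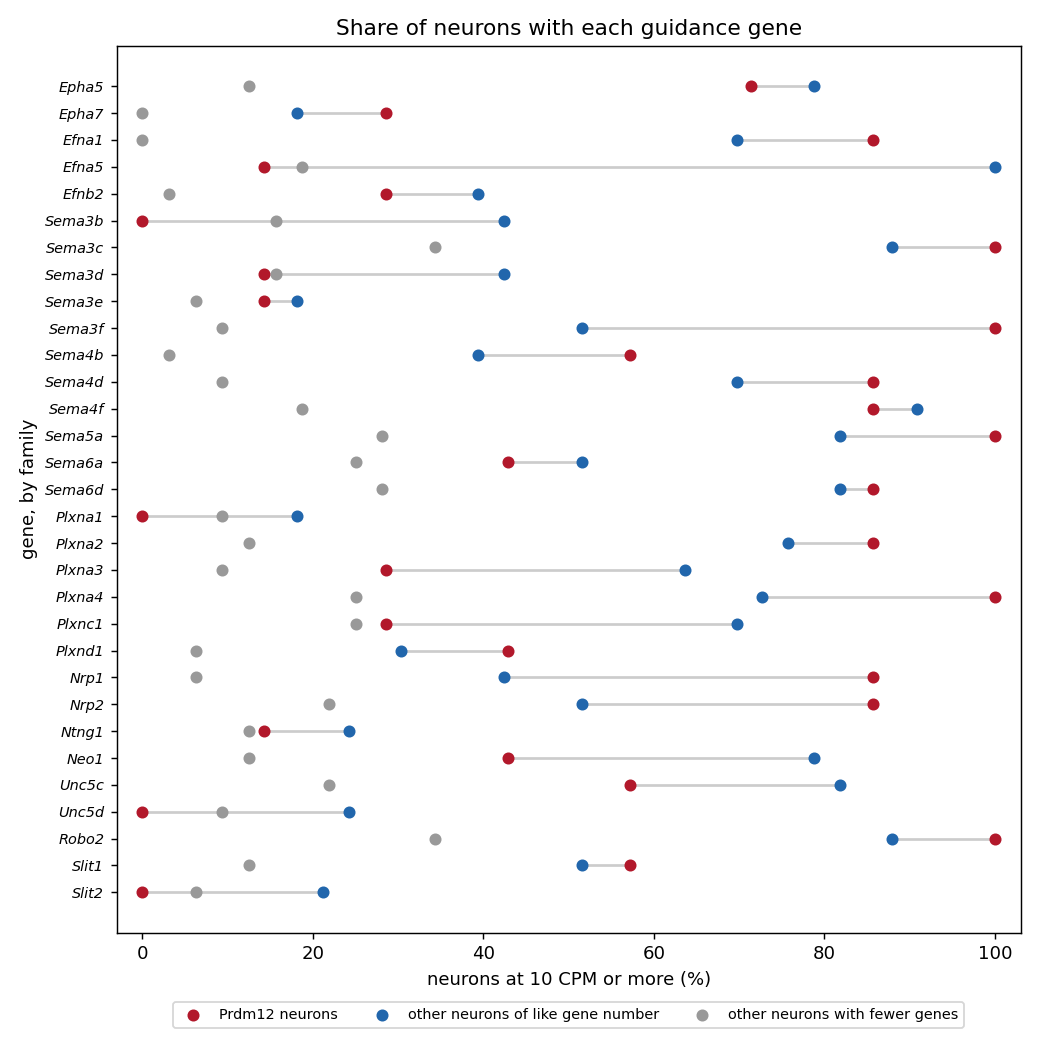
Share of neurons (horizontal axis, percent) with each of the 31 members detected in 10% or more of the neurons, by family; red points are the 7 Prdm12 neurons, blue points the 33 other neurons of like gene number, grey points the 32 other neurons with fewer genes, and bars join the first pair. Efna5 spans the widest gap, 14.3% in Prdm12 neurons and 100% in the other neurons of like gene number.

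Promoters are shown for Efna5, Plxnc1 and Nrp1, members called at like gene number for which the table used here holds one, and for Nrp2, the other neuropilin. They are the RefSeq sequences of 250 bases before to 50 bases after the start (GRCm38.p6), printed along the gene's strand with CG dinucleotides in capitals. The Efna5 promoter lies at chr17:62881268-62881567 on the minus strand, that of Plxnc1 at chr10:94944796-94945095 on the minus strand, that of Nrp1 at chr8:128358823-128359122 on the plus strand and that of Nrp2 at chr1:62703067-62703366 on the plus strand.
Efna5: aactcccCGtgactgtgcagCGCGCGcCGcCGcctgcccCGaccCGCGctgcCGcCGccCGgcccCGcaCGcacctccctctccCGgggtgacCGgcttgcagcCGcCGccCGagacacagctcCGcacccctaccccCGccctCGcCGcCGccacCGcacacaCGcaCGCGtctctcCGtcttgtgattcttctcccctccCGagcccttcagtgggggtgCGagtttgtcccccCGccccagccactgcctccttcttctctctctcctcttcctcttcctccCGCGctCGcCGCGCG
Plxnc1: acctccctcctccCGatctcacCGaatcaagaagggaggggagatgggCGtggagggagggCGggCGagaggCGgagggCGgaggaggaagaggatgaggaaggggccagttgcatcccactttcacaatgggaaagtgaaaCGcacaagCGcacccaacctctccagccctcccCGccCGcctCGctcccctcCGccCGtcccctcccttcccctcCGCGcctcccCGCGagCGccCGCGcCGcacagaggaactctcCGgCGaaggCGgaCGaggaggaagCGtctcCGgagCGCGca
Nrp1: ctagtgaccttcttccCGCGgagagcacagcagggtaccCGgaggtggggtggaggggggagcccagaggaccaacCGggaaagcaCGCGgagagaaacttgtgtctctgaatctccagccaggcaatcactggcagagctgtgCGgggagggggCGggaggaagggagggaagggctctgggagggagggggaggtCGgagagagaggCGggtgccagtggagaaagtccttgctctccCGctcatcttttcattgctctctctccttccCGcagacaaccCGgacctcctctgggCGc
Nrp2: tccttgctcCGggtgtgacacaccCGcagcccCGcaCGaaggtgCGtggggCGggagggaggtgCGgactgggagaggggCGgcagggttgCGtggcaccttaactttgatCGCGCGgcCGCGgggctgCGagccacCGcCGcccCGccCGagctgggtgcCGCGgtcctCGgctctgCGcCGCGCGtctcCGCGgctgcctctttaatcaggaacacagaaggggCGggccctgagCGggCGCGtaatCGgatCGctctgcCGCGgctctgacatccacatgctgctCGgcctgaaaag
The Efna5, Plxnc1 and Nrp2 promoters were dense in CG, with 38, 30 and 37 dinucleotides, and that of Nrp1 had 14. The median over the 32851 promoters of the table was 7 (quartiles 3 and 20), and over the 78 promoters of the 62 members that have one there it was 19.5. A search of both strands for TGTGGT (the core bound by Runx factors), TAATTA (a core of many homeodomains) and TATAAA (the TATA box) found no match in these 4 windows. Over all promoters of this length, 16.8% held TGTGGT, 5.29% TAATTA and 13.6% TATAAA, and among those of members 9, 3 and 2 of 78 did.

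Among the ephrins, the contact ligands of Eph receptors, Efna5 (chromosome 17, 62604184 to 62881317, GRCm38) was the most frequent. This membrane-anchored ligand had 0, 0.055, 26.05, 0.070, 0, 9.06 and 0.285 CPM in the Prdm12 neurons AM011, AM013, AM228, AM237, AM296, AM303 and AM304. The 33 other neurons of like gene number had 10.5 to 165.3 CPM, with a median of 52.01. It was thus detected in 1 of 7 Prdm12 neurons (14.3%, 0.361 to 57.9%), against 33 of 33 others (100%, 89.4 to 100%). Only AM228 reached into the range of the other class, where 4 of 33 neurons lay at or below its level. In the other neurons with fewer genes Efna5 was found in 6 of 32 (18.8%), so the contrast holds for neurons of like gene number and narrows against all 65. At 1 count or more Efna5 was present in 5 of 7 Prdm12 neurons and 33 of 33 others, and the difference narrowed to -28.6 points. Within identifier block 1 it was detected in 0 of 2 Prdm12 neurons and 9 of 9 others of like gene number, and within block 3 in 1 of 5 and 20 of 20. Blocks are runs of neuron numbers parted by gaps of more than 30, with 16, 11 and 45 kept neurons, and the labels do not say what they stand for. Across the 40 neurons of both classes the Spearman coefficient of Efna5 with the satellite glia sum was 0.018, a description over single cells.

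Efna1, a second membrane-anchored ligand, did not share this pattern. It was seen in 6 of 7 Prdm12 neurons, at 0.190 to 92.3 CPM with a median of 28.6, and in 23 of 33 other neurons of like gene number, at 0 to 102.4 CPM with a median of 21.1, and the classes overlapped across nearly the whole range. None of the 32 other neurons with fewer genes had it, and its difference was past the limit against all 65 others (50.3 points) and short of it at like gene number (16.02). Efnb2, a transmembrane ligand, was found in 2 of 7, 13 of 33 and 1 of 32 neurons. Efna2 was found in 1 neuron of all 72 and Efnb3 in 2, one of them a neuron with few genes at 1302 CPM. Efna3, Efna4 and Efnb1 stayed below 10 CPM in each neuron.

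The Eph receptors were mostly sparse. Epha5, which binds ephrin-A ligands, was by far the most frequent, in 35 of 72 neurons (48.6%). It was seen in 5 of 7 Prdm12 neurons, at 0 to 634.6 CPM with a median of 20.2, and in 26 of 33 other neurons of like gene number, at 0.147 to 645.2 CPM with a median of 44.05. The classes overlapped from end to end. Epha5 and Efna5 were detected together in 0 of 7 Prdm12 neurons (0%, 0 to 40.96%), against 26 of 33 other neurons of like gene number (78.8%, 61.1 to 91.0%), a difference that follows from Efna5. Epha7 was found in 8 neurons and Epha4, a receptor for ephrins of both classes, in 5. The other Epha genes reached 10 CPM in at most 2 neurons, with Epha6 in 2, Epha2, Epha3 and Epha10 in 1, and Epha1 and Epha8 in none. Among EphB receptors, Ephb1 and Ephb3 were found in 3 neurons each and Ephb6 in 2. Ephb2 and Ephb4 (a receptor of venous endothelium) were found in none.

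**Figure D3:**
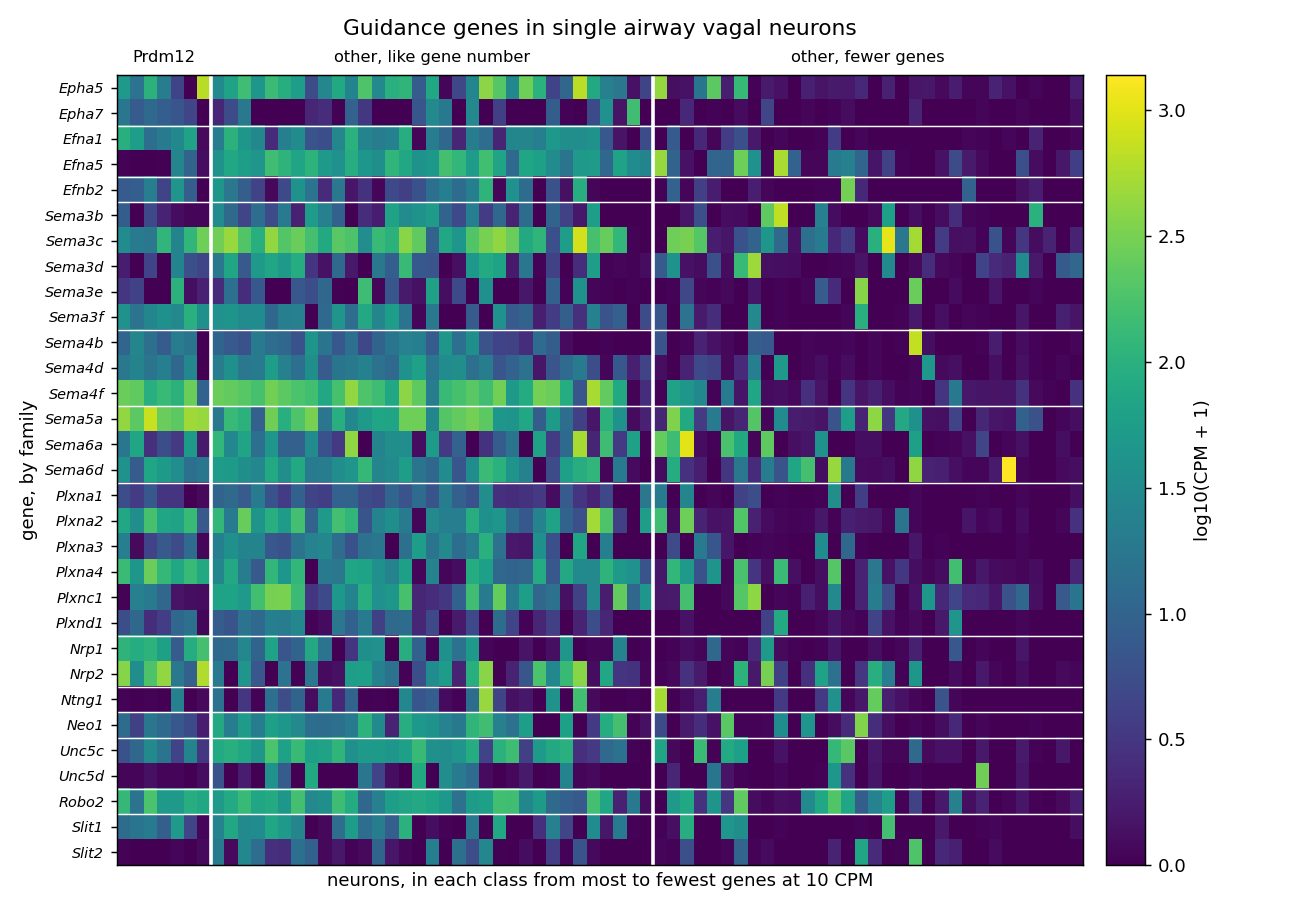
Levels of the 31 members detected in 10% or more of the neurons (rows, by family) in each of the 72 neurons (columns), as log10(CPM + 1); white lines part the 7 Prdm12 neurons, the 33 other neurons of like gene number and the 32 with fewer genes, each ordered from most to fewest genes. The Efna5 row is dark in most Prdm12 neurons and bright in all 33 others of like gene number, and the Sema5a row is brighter at the median in Prdm12 neurons (429.0 CPM) than in those others (66.4 CPM).

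Of the secreted class 3 semaphorins, 7 of 7 members were detected in some neuron. Sema3c, a ligand of both neuropilins, was carried by 7 of 7 Prdm12 neurons and 29 of 33 other neurons of like gene number, yet its level differed. It had 16.8 to 276.9 CPM in Prdm12 neurons, with a median of 31.7, and 0 to 833.1 CPM in the others, with a median of 169.9. Only 1 of 7 Prdm12 neurons, AM304, lay above the others' median.

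Sema3f (chromosome 9, 107681500 to 107710475), which acts mainly through neuropilin 2, had 26.7, 36.95, 29.5, 39.2, 14.5, 98.7 and 36.8 CPM in AM011, AM013, AM228, AM237, AM296, AM303 and AM304. The other neurons of like gene number had 0 to 77.5 CPM, with a median of 10.1. Sema3f was detected in 7 of 7 Prdm12 neurons (100%, 59.04 to 100%), against 17 of 33 others (51.5%, 33.5 to 69.2%), and each Prdm12 neuron lay above the others' median, although 14 of 33 others reached the lowest Prdm12 neuron. The blocks did not show the same gap. In block 1 it was seen in 2 of 2 Prdm12 neurons and 7 of 9 others, in block 3 in 5 of 5 and 6 of 20, and in block 2, which holds no Prdm12 neuron, in 4 of 4 others.

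Sema3b (chromosome 9, 107597674 to 107609229), a close chromosomal neighbour of Sema3f, went the other way. It had 3.97, 0.987, 0.270, 7.36, 0, 0.128 and 0.095 CPM in the same 7 Prdm12 neurons, and 0 to 63.4 CPM in the other neurons of like gene number, with a median of 8.50. It was detected in 0 of 7 (0%, 0 to 40.96%) and 14 of 33 (42.4%, 25.5 to 60.8%). With at least 1 count it was present in 6 of 7 Prdm12 neurons and 27 of 33 others. It was seen in 0 of 2 Prdm12 neurons and 4 of 9 others in block 1, and in 0 of 5 and 7 of 20 in block 3. Sema3d was seen in 1 of 7 Prdm12 neurons and 14 of 33 others (-28.1 points), and Sema3e, the ligand of Plxnd1, in 1 of 7 and 6 of 33. Sema3a, the classic repellent of neuropilin 1 axons, reached 10 CPM in 1 neuron of 72 and Sema3g in 3.

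Among the membrane-bound semaphorins, Sema5a, which carries thrombospondin repeats, had the clearest difference in level. It had 744.6, 264.2, 220.9, 429.0, 225.2, 496.6 and 448.1 CPM in AM011, AM013, AM228, AM237, AM296, AM303 and AM304. The other neurons of like gene number had 0.247 to 316.5 CPM, with a median of 66.4. Detection hardly differed, with 7 of 7 and 27 of 33 neurons, but only 7 of 33 others reached the lowest Prdm12 neuron. The annotation lists an antisense gene across Sema5a, and the strand setting of the counting is not given in the sources used here, so reads of the pair cannot be told apart.

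Sema4f, a transmembrane semaphorin with the highest median level per kilobase among the members, was seen in 6 of 7 Prdm12 neurons, at 8.85 to 271.1 CPM with a median of 135.0, and in 30 of 33 others of like gene number, at 0.0824 to 542.0 CPM with a median of 168.7. Sema4d, the ligand of Plxnb1, was found in 6 of 7 and 23 of 33, with medians of 17.02 and 15.7 CPM. Sema4b was found in 4 of 7 and 13 of 33. Sema6d was found in 6 of 7 and 27 of 33, with medians of 34.1 and 32.5 CPM, and Sema6a in 3 of 7 and 17 of 33. None of these 5 genes parted the classes at like gene number. Sema6c was found in 6 neurons of 72, Sema4a and Sema4g in 3, Sema4c in 2 and Sema6b and Sema7a in 1, while Sema5b was found in none.

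The neuropilins went the other way from Efna5, with higher medians in Prdm12 neurons, but their detection parted the classes less widely. Nrp1 (chromosome 8, 128358604 to 128503363) encodes the receptor that binds Sema3a and its relatives. It had 107.3, 59.4, 6.92, 109.8, 88.1, 86.8 and 165.4 CPM in AM011, AM013, AM228, AM237, AM296, AM303 and AM304. The other neurons of like gene number had 0 to 90.3 CPM, with a median of 8.48. Its detection covered 6 of 7 Prdm12 cells (85.7%, 42.1 to 99.6%) and 14 of 33 others (42.4%, 25.5 to 60.8%). The classes overlapped, and the 1 Prdm12 neuron without it, AM228, was also the 1 with Efna5. In block 1 it was seen in 2 of 2 Prdm12 neurons and 2 of 9 others, in block 3 in 4 of 5 and 8 of 20, and in block 2 in 4 of 4 others.

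Nrp2 (chromosome 1, 62703285 to 62818695), the Sema3f receptor whose promoter is shown above, had 182.9, 433.3, 16.9, 368.0, 33.2, 8.16 and 592.2 CPM in the same 7 neurons. The other neurons of like gene number had 0 to 382.1 CPM, with a median of 13.7. It was detected in 6 of 7 Prdm12 neurons and 17 of 33 others, a difference of 34.2 points that lay short of the limit. Levels within the Prdm12 class spread widely, with 4 neurons at 182.9 CPM or more and 3 at 33.2 CPM or less. An antisense gene is listed across Nrp2 as well.

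**Figure D4:**
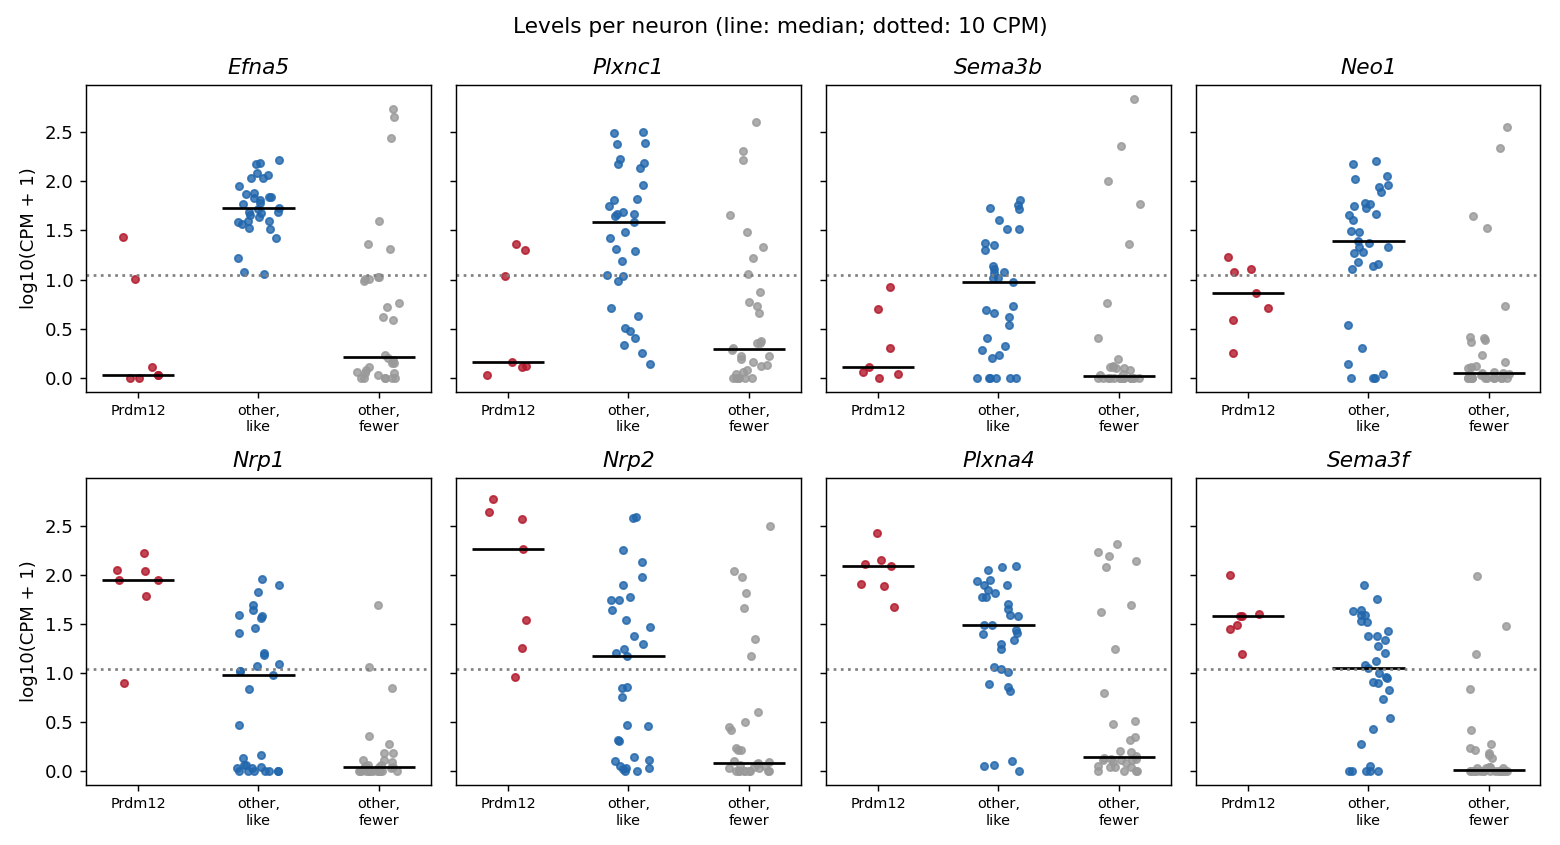
Levels per neuron as log10(CPM + 1) of 8 members, one point per neuron, in the 7 Prdm12 neurons (red), the 33 other neurons of like gene number (blue) and the 32 with fewer genes (grey); lines are medians and the dotted line is 10 CPM. Medians of Efna5, Plxnc1, Sema3b and Neo1 are lower in Prdm12 neurons than in the other neurons of like gene number, those of Nrp1, Nrp2, Plxna4 and Sema3f are higher, and the classes overlap in each panel.

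Among the plexins, the signalling receptors of semaphorins, Plxna4 had 45.3 to 265.5 CPM in Prdm12 neurons, with a median of 121.8, and 0 to 120.4 CPM in the other neurons of like gene number, with a median of 29.4. It was found in 7 of 7 and 24 of 33 neurons (27.3 points), and 12 of 33 others reached the lowest Prdm12 neuron. Across the 40 neurons of both classes its Spearman coefficient with the satellite glia sum was -0.424, and the part of glial transcripts in this difference was not tested. Antisense genes are listed across Plxna4 too. Plxna2 was found in 6 of 7 and 25 of 33, with medians of 72.2 and 35.6 CPM. Plxna3 was less frequent in Prdm12 neurons, in 2 of 7 against 21 of 33, with medians of 4.40 and 14.4 CPM, and Plxna1 was found in 0 of 7 and 6 of 33.

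Plxnc1 (chromosome 10, 94790866 to 94944835), the receptor of Sema7a, had 19.02, 9.92, 0.449, 0.070, 22.1, 0.321 and 0.285 CPM in AM011, AM013, AM228, AM237, AM296, AM303 and AM304. The other neurons of like gene number had 0.391 to 321.5 CPM, with a median of 37.98. It was detected in 2 of 7 Prdm12 neurons (28.6%, 3.67 to 70.96%), against 23 of 33 others (69.7%, 51.3 to 84.4%), and no Prdm12 neuron reached the others' median. The difference of -41.1 points lay just past the limit. It became -36.4 points when AM013, AM228, AM237, AM303 or AM304 was left out, and -53.0 without AM011 or AM296. In block 1 Plxnc1 was seen in 1 of 2 Prdm12 neurons and 8 of 9 others, and in block 3 in 1 of 5 and 11 of 20. Plxnd1 was found in 3 of 7 and 10 of 33. The class B plexins were sparse, with Plxnb2 in 3 neurons of 72 and Plxnb1 and Plxnb3 in 2, so Sema4d and its receptor gene Plxnb1 were detected together in 0 neurons.

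Most class 3 semaphorins signal through a neuropilin and a class A plexin on 1 cell. A neuropilin and a class A plexin were detected together in 7 of 7 Prdm12 neurons (100%, 59.04 to 100%), in 23 of 33 other neurons of like gene number (69.7%, 51.3 to 84.4%) and in 5 of 32 with fewer genes. Class A plexins were near universal at like gene number, in 7 of 7 and 32 of 33 neurons, so the neuropilin set the share. Both neuropilins were found together in 5 of 7 Prdm12 neurons (71.4%, 29.04 to 96.3%), against 8 of 33 others (24.2%, 11.1 to 42.3%). The most frequent pairs in Prdm12 neurons were Nrp1 with Plxna4 and Nrp2 with Plxna4, each in 6 of 7, against 11 of 33 and 14 of 33 others. Nrp2 was found together with its ligand gene Sema3f in 6 of 7 Prdm12 neurons and 8 of 33 others. Since Plxna4 and Sema3f were each found in 7 of 7 Prdm12 neurons, these pair counts there follow from the neuropilin alone. The sum of both neuropilins reached a median of 290.2 CPM in Prdm12 neurons (23.8 to 757.5) and 28.6 CPM in the others (0.0579 to 382.2).

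Of the netrin family, Ntn1, Ntn4, Ntn5 and Ntng2 were rare or undetected in these neurons, and Ntng1 was more frequent. Ntn1, the founding attractant, stayed at or below 3.89 CPM and Ntng2 below 10 CPM in each of the 72 (0%, 0 to 4.99%). Ntn4 was found in 4 neurons and Ntn5 in 1. The highest Ntn4 value, 929.4 CPM, was in AM244, where the satellite glia sum exceeded the neuronal sum. Ntng1, a membrane-anchored relative, was seen in 1 of 7 Prdm12 neurons, 8 of 33 others of like gene number and 4 of 32 with fewer genes. It reached 514.6 CPM over the 72 neurons.

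Among netrin receptors, the attractant receptor gene Dcc was detected in 1 of 72 neurons, at 10.4 CPM. Unc5c, a repellent receptor, was the frequent one. It had 2.19 to 31.2 CPM in Prdm12 neurons, with a median of 10.5, and 0 to 177.2 CPM in the other neurons of like gene number, with a median of 50.1, and was found in 4 of 7 and 27 of 33. No Prdm12 neuron reached the others' median. Neo1, a relative of Dcc that also binds repulsive guidance molecules, showed a like pattern, with 0.761 to 16.1 CPM and a median of 6.29 in Prdm12 neurons, against 0 to 162.2 CPM and a median of 23.9 in the others, and was found in 3 of 7 and 26 of 33. Antisense genes are listed across Unc5c and Neo1 as well. Unc5d was found in 0 of 7 and 8 of 33, Unc5a in 3 neurons of 72 and Unc5b in 2.

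Robo2, the main Slit receptor of these neurons by share, overlapped widely between the classes. It had 14.6 to 179.5 CPM in Prdm12 neurons, with a median of 73.1, and 0.258 to 158.8 CPM in the other neurons of like gene number, with a median of 52.1, and was found in 7 of 7 and 29 of 33. Robo1 was found in 6 neurons of 72, and Robo3, of commissural axons, and Robo4, of endothelium, in none. Slit1 was found in 4 of 7 and 17 of 33, at medians of 11.9 and 12.4 CPM, and together with Robo2 in 4 of 7 and 16 of 33. Slit1 reached 48.7 CPM in Prdm12 neurons and 100.1 CPM in the others. Slit2 stayed at or below 0.190 CPM in Prdm12 neurons and reached 28.1 CPM in the others, and was found in 0 of 7 and 7 of 33 (-21.2 points). Slit3 was found in 3 neurons of 72, each of them an other neuron of like gene number.

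The 12 members that reached 10 CPM in no neuron were Efna3, Efna4, Efnb1, Epha1, Epha8, Ephb2, Ephb4, Ntn1, Ntng2, Robo3, Robo4 and Sema5b. The highest value among them was 8.77 CPM, of Efna3 in a Prdm12 neuron.

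Downstream of these receptors, a list of 70 intracellular effectors and membrane partners was more evenly carried than the receptors and ligands. Of the 68 that reached 10 CPM in a neuron, 39 were detected in 50% or more of the neurons (57.4%), beside the 38.9% of all genes. Dpysl2 and Dpysl3, collapsin response mediators that act on microtubules, were found in 72 and 71 neurons, and Cfl1, the actin-severing cofilin, in 72. Against the other neurons of like gene number, 2 of 68 were more frequent in Prdm12 neurons (2.94%), beside 2.30% of all genes, and 1 was less frequent (1.47%), beside 1.64%, so these counts lay near the background. Dpysl4, another collapsin response mediator, was found in 7 of 7 and 15 of 33. Vav2, a signalling protein downstream of Eph receptors, was found in 7 of 7 and 16 of 33, with 41.4 to 200.2 CPM and a median of 107.8 in Prdm12 neurons and 0 to 128.7 CPM and a median of 9.27 in the others. Src, a kinase downstream of several guidance receptors, was found in 0 of 7 and 14 of 33, but with medians of 6.27 and 7.98 CPM the levels overlapped. Against all 65 others, 5 of 68 were more frequent (7.35%), beside 15.6% of all genes, and 0 less frequent. These were Dpysl4, Vav2, Limk1, Evl and Vasp, the last 3 regulators of actin. Without the 6 neurons in which glial exceeded neuronal markers the 5 became 3, and the share of all genes was not computed for that set.

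The pair of higher calls at like gene number, Nrp1 and Sema3f, fell short of 40 points at a stricter limit on genes. The 3 lower calls stayed past -40 points. When both classes were limited to 7000 genes or more, a limit chosen after seeing the data, 6 Prdm12 neurons stood against 24 others and 0 of 59 members were more frequent by 40 points, beside 2.52% of all genes. Nrp1 was then found in 5 of 6 and 12 of 24 neurons and Sema3f in 6 of 6 and 16 of 24, 33.3 points for each, with medians of 87.4 and 10.03 CPM for Nrp1 and 33.2 and 16.2 CPM for Sema3f. Efna5 was found in 1 of 6 and 24 of 24 (-83.3 points). The less frequent members were then 5 of 59 (8.47%), beside 2.41% of all genes, with Efna5, Sema3b (-54.2), Neo1 (-45.8), Plxna3 (-41.7) and Plxnc1 (-41.7).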

How the data were processed

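The authors deposited raw read counts, whole numbers for 50686 Ensembl genes in 84 neurons, assigned with featureCounts per the submitters' processing notes (version not given). Per the labels' protocols, sequencing gave 76-base reads on a NextSeq 500. For the aligner, genome build, annotation and strand setting, the entry is "not given in the sources used here". Since molecular identifiers are nowhere named, copies made by amplification may each be counted. Exact (Clopper-Pearson) 95% binomial intervals cover counting error only.

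Identifiers were matched to symbols, coordinates and exon lengths in GENCODE M21 (GRCm38); 50462 matched, and the 224 others held at most 0.215% of a kept neuron's counts. CPM used each neuron's total over all genes. At the 10 CPM threshold the shallowest kept neuron needed 67.3 counts. The 12 neurons below 5000000 counts (576966 to 3892206) were left out. No pair of neurons had identical counts. Ntn3 was not analysed here. The background was the 13379 protein-coding genes at 10 CPM in at least 1 neuron.

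Members and lists were chosen with earlier results of these data known. Named with values are, per family, the 2 members with the highest share and every member past 40 points (families of 9 or fewer may be named whole), and, of the effectors, all past 40 points and the 3 with the highest share. No test between classes was run, since the labels give 1 group without replicates. Alternatives changed the CPM that counts as detected, the minimum of total counts, the depth (every neuron thinned to the shallowest), the scaling (TMM factors of edgeR 4.0.16 in R 4.3.3), the Prdm12 threshold, the size rule, and leaving out blocks or Prdm12 neurons. Python 3.11.15, numpy 2.4.6, pandas 2.3.3, scipy 1.17.1 and matplotlib 3.10.9 were used, with seed 1.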

Additional observations from a re-analysis of the deposited data

Results flagged for a closer look

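The 12 neurons below the minimum of total counts entered no comparison, and none reached 10 CPM of Prdm12. In them, 24 of the 71 members reached 10 CPM with more than 3 counts in at least 1 neuron. The share of all genes that did so was not computed, so the count has no background beside it. In these neurons 10 CPM rests on fewer counts than the 67.3 needed in the shallowest kept neuron. Of the members called above, Plxnc1 did so in 7 of these 12 neurons, Sema5a in 6, Nrp2 in 5, Plxna4 in 3, Efna5 in 2, and Plxna2 and Sema3f in 1 each.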

How the results depend on the processing

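Of the differences at like gene number, that of Efna5 was past -40 points under 21 of 22 alternatives, from -100 to -28.6, the exception being detection at 1 count. Nrp1 and Sema3f were past 40 points under 17 of 22, Sema3b under 13 and Plxnc1 under 10. Nrp1 ranged from 21.2 points at 1 count to 76.6 at 50 CPM. Sema3f ranged from 0 to 58.3, Sema3b from -54.2 to 3.90 and Plxnc1 from -53.0 to 0. These tallies include dropping the minimum of total counts and leaving out the 6 neurons rich in glial transcripts. Both kept the same 7 and 33 neurons at like gene number, so neither could alter these differences. Leaving out each Prdm12 neuron in turn gave 7 to 10 members more frequent and 1 less frequent against all other neurons, and 2 to 3 more frequent and 2 to 4 less frequent at like gene number.

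Against all others, the count of 8 more frequent members became 4 at 50 CPM, 5 at 1 count, 5 with 10000000 counts or more, 5 with Prdm12 at 5 CPM, 14 without block 3, 13 at 30 points and 4 at 50 points. The 1 less frequent member became 0 at 5, 20 or 50 CPM, at 1 count, without a minimum of total counts, with Prdm12 at 5 CPM, without block 1 and at 50 points, and 4 without block 3. At like gene number, the 2 more frequent became 0 at 50 points and 0 with 7000 genes or more, an alternative chosen after seeing the data. The 3 less frequent became 1 at 1 count, 1 with Prdm12 at 5 CPM, 5, 1 and 7 without block 1, 2 or 3, 5 at 30 points, 1 at 50 points and 5 with 7000 genes or more. Without block 3 only 2 Prdm12 neurons remained. The 3 effectors became 0 at 5 CPM, 1 at 1 count and 1 under TMM scaling. The median of 13 members per neuron became 5 at 50 CPM and 36 at 1 count. A pair of called differences turned sign: Sema4d against all others to -3.08 points at 50 CPM, and Sema3b at like gene number to 3.90 points at 1 count. Of differences short of the limit, some also changed sign. At like gene number Efna1 (16.02 points) went as far as -6.49 at 20 CPM, Plxna2 (9.96) to -2.78 with Prdm12 at 30 CPM and Sema4d (16.02) to -14.3 at 1 count. Against all others Sema3b (-29.2) went to 19.6 and Plxnc1 (-19.1) to 9.23 at 1 count. Leaving out the 6 neurons with more glial than neuronal marker CPM, also chosen after seeing the data, could change no count at like gene number. All 6 are other neurons with fewer genes, so that comparison kept the same neurons. The causes were not tested.

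With 7 Prdm12 neurons a single neuron moves a share by 14.3 points, and a member below 10 CPM is not shown to be absent. No paired analysis was possible because the labels give 1 group and no shared replicate numbers.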
